A study of Mus musculus with 8 samples.

Results

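The Slc25 genes encode the mitochondrial carrier family, the transport proteins that move metabolites across the inner mitochondrial membrane. They were followed here in livers of mouse pups that lack glycerol kinase. Members were taken as every gene whose symbol in the array's probe annotation reads Slc25a and a number. This gave 44 genes, covered by 93 probe sets, of 18193 genes with a probe set of their own. Each gene is represented by the probe set with the highest mean signal over the 8 arrays, and its other probe sets serve as a check.

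Liver RNA of 4 wild-type and 4 glycerol kinase knockout pups was measured on Affymetrix whole-genome mouse arrays, with 1 liver to an array. By the labels all pups were inbred C57BL/6J males on day of life 3, and the wild-type pups were age-matched littermates of the knockouts. The series title calls the knockout a targeted disruption of the gene, and the design text says that the knockouts had low blood glucose and acidosis at day 3 but did not yet differ at day 2. The labels give neither litter nor treatment, and no group carries another allele. Nothing in the labels restricts the disruption to 1 cell type. Glycerol kinase itself was not analysed here, so its level does not check the group labels.

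Mitochondrial carriers are small membrane proteins built from a repeated fold. Each exchanges or carries a narrow set of substrates, such as ADP for ATP, aspartate for glutamate, or ornithine for citrulline. In liver they connect the matrix steps of the urea cycle, glucose synthesis and fatty acid oxidation with the steps in the cytosol. The malate-aspartate shuttle, which needs 2 of these carriers, brings the reducing equivalents of cytosolic NADH into mitochondria. The glycerol phosphate shuttle does so by another route and draws on the product of glycerol kinase.

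Each value is a linear signal intensity, brought by the authors' software to 1 common trimmed mean. It describes a probe set across arrays and gives no order of level between genes. Some arrays stood apart in sex-linked genes or in control signals. The array labelled wild type 4 had an Xist signal of 10506 against 196 to 396 on the other 7, and a signal of 1.3 for the Y-linked Eif2s3y, so it goes against its label of male. In both groups replicates 1 and 2 stood apart from replicates 3 and 4 in control signals, with transferrin receptor 3'/5' ratios of 6.50 to 6.72 against 4.21 to 4.83. Knockout 1 and knockout 2 had 3'/5' ratios of 7.03 and 4.93 for the pyruvate carboxylase control, beside 2.06 to 3.46 on the other 6 arrays, so that within replicates 1 and 2 this ratio was higher in both knockouts. The members' median log2 fold change was 0.23 there and 0.03 within replicates 3 and 4. Results are therefore also given with this split as a block, within replicates 1 and 2 and within replicates 3 and 4, and without wild type 4. The hepatocyte marker list (9 of 10 genes on the array, albumin, transthyretin and apolipoprotein A1 among them) had summed signals of 157905 to 199850 on wild-type arrays and 179433 to 244682 in the knockout. All 9 of these markers lay above 0, at a median log2 fold change of 0.11, and 3 had an unadjusted p under 0.05: Tat (1.33), Hnf4a (0.73) and Cps1 (0.28). Their part in the carriers' values was not tested. In such whole-tissue RNA, fewer cells of a type and less RNA per cell cannot be told apart.

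Of the 44 genes, 34 passed the filter (4 or more of the 8 arrays at a signal of 200 or higher) and were tested. For 0 of these were all 4 arrays of 1 group at that signal and no array of the other. In the fit over all 20395 probe sets that passed, 0 of the 34 were called at a limma adjusted p under 0.05, where 0.299% of all probe sets were. At an unadjusted p under 0.05 there were 6 members higher in the knockout (17.6% of 34) and 0 lower. The same counts over the brightest probe sets of all 10876 genes tested were 7.59% higher and 7.93% lower. The 6 were Slc25a4, Slc25a5, Slc25a11, Slc25a13, Slc25a15 and Slc25a32. Without wild type 2 there were 3 higher and 0 lower, without knockout 2 also 3 and 0, and without knockout 3 there were 2 and 0. Without wild type 4 there were 7 and 0, and without knockout 4 also 7 and 0. Without knockout 1 there were 3 higher and 2 lower. Leaving out wild type 1 gave 4 and 1, as did leaving out wild type 3. Of all probe sets 11.0% to 18.1% had such a p in these fits, against 14.4% with all 8 arrays. After quantile normalization the split was 4 higher and 1 lower, since Slc25a5 and Slc25a13 no longer met this p and Slc25a47 did (-0.59). With no filter on signal, over all 44 members, it was 7 higher and 2 lower, the additions being Slc25a48 (higher), Slc25a31 and Slc25a40 (both lower). Of all probe sets 14.5% had such a p after quantile normalization and 9.1% with no filter. Within replicates 1 and 2 the count was 6 higher and 0 lower, and within replicates 3 and 4 it was 1 higher and 3 lower. Of all probe sets, 15.8% and 14.4% had such a p in these 2 fits. The median log2 fold change over the 34 was 0.10, with 22 above 0 (64.7%), beside a median of -0.02 and 46.5% above 0 over all genes tested.

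The carriers for adenine nucleotides held the member with the smallest p. Slc25a4, on chromosome 8, encodes ANT1, the ADP/ATP translocase known chiefly from heart and skeletal muscle. Its relative Slc25a5, on chromosome X, encodes ANT2, the form found in liver and in dividing cells. Their annotated promoter windows are shown because the signals of both genes were higher in the knockout. The sequences are from RefSeq on build GRCm38.p6 and run from 250 bases before the annotated start to 50 bases after it. They lie at chr8:46211013-46211312 (minus strand) and chrX:36795347-36795646 (plus strand). Capitals mark the letters ATATAAG, which resemble the core promoter box bound by the general transcription machinery.
Slc25a4: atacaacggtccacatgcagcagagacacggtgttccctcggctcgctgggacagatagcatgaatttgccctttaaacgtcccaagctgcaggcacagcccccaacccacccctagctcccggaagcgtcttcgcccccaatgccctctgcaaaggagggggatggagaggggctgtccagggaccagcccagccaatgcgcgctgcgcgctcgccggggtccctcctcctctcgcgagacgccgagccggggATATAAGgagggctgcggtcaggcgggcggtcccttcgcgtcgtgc
Slc25a5: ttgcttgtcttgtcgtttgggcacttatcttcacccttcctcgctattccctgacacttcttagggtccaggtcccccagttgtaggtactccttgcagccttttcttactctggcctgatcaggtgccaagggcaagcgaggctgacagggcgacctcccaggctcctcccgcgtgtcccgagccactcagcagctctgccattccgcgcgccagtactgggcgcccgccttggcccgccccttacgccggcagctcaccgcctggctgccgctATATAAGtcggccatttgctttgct

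In this annotation the run stands at bases 5 to 11 after the start for Slc25a4 and at bases 26 to 32 for Slc25a5. It was added after both sequences had been read, and was searched on both strands like the others. It occurs in 2.53% of the 32817 windows of this length and, of the 43 member windows (34 genes), in these 2 alone. Members' windows held CACGTG, the E-box, in 18.6% of cases against 7.15% of all windows. These 8 windows belong to 7 genes (Slc25a1, Slc25a13, Slc25a14, Slc25a15, Slc25a31, Slc25a33 and Slc25a36), because 2 overlapping windows of Slc25a14 hold the same site. For TGACGTCA, the cyclic AMP response element, the shares were 4.65% and 1.79%, the members being Slc25a25 and Slc25a36. TATAAA was found in 2.33% against 13.6%, in Slc25a18. No member window held TCAAGGTCA (estrogen-related receptor; 0.424% of all windows), GCGCATGCG (NRF1; 1.75%) or TGATGNAAT (ATF4; 0.966%). TATAAA can overlap ATATAAG by all but its last letter. These matches describe letters in a window only.

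Slc25a4 had signals of 6671, 5673, 5899 and 10252 on wild type 1 to 4 and of 16341, 12893, 14550 and 11639 on knockout 1 to 4. The 4 knockout arrays lay above all 4 wild-type arrays, the nearest pair being wild type 4 and knockout 4. The mean went from 7124 ± 2129 to 13856 ± 2041 (SD, n = 4 each), 1.94 times as high. The log2 fold change of 0.99 ± 0.19 (SE) just missed the threshold (limma adjusted p = 0.0612). It passed with the split as a block (adjusted p = 0.0495), where 0.902% of all probe sets were called and Slc25a4 was the 1 member among them (2.94% of 34). It also passed without wild type 4 (1.18; adjusted p = 0.0448), where 0.0294% of all probe sets were called, and without knockout 4 (1.07; adjusted p = 0.0377), where 1.64% were. Leaving out each of the other 6 arrays gave adjusted p of 0.101 to 0.202. Across all 25 settings tried the fold change ran from 0.74 to 1.24, and the adjusted p from 0.0176 to 0.278.

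All 3 tested probe sets of Slc25a4 gave the same picture. The knockout means of the other 2 were 1.82 and 1.96 times the wild-type means (limma adjusted p = 0.0777 and 0.0712), and in each the groups did not overlap. The brightest ends in _x_at, a suffix that Affymetrix gives where some probes can match other transcripts, and the other 2 end in _a_at. The remaining probe set, at 24.3 to 63.0, was not tested. Since Slc25a4 is the muscle form, muscle RNA was looked at beside it. The 7 muscle markers, which include Ckm, Acta1 and Myh4, all missed the filter, and their summed signal was 451 to 753 on wild-type arrays and 361 to 881 in the knockout. Their part in the values of Slc25a4 was not tested.

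Slc25a5 stood at 11314, 13915, 15073 and 16314 on wild-type arrays and at 18238, 16014, 18670 and 17456 in the knockout. The groups overlapped by knockout 2 and wild type 4 only. The knockout mean was 1.24 times the wild-type mean (14154 ± 2132 against 17594 ± 1167), with a log2 fold change of 0.32 ± 0.12 (limma adjusted p = 0.260). Without wild type 4, which matters for an X-linked gene, it was 0.40 (adjusted p = 0.237). Its 8 probe sets all passed the filter and all read higher in the knockout, from 0.20 to 0.40. Of these 5 were under an unadjusted p of 0.05, and adjusted p ran from 0.220 to 0.495. As 6 of the 8 end in _x_at, signal shared with related transcripts cannot be told apart there. The probe sets of 4 members with more than 1 tested are set out in the plot of single probe sets.

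**Figure D1:**
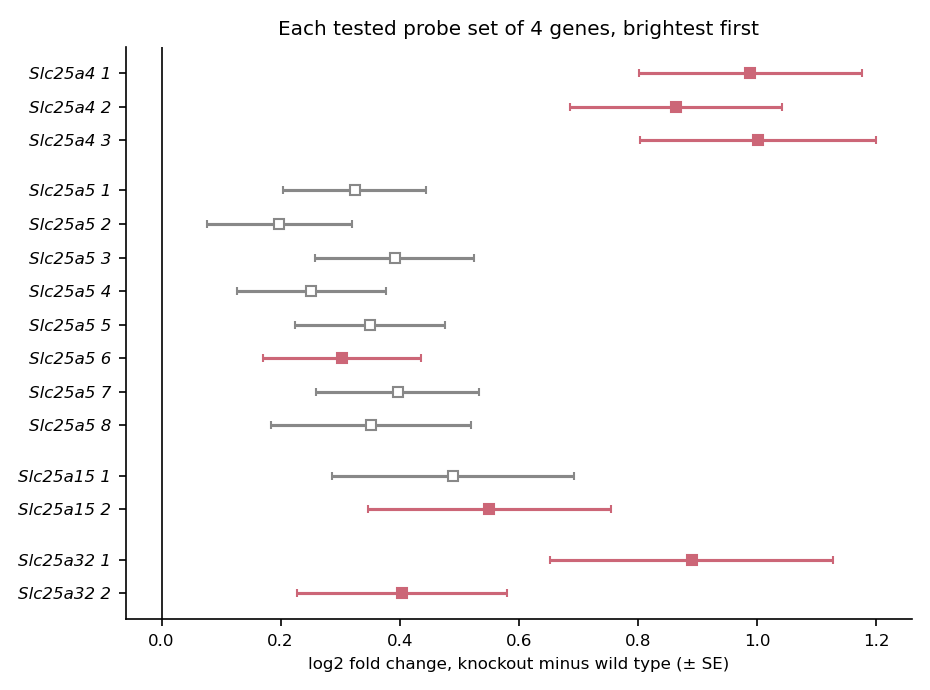
Log2 fold change, knockout minus wild type, with limma's standard error for every tested probe set of Slc25a4, Slc25a5, Slc25a15 and Slc25a32, numbered by brightness. Filled red squares mark probe sets whose 4 knockout arrays did not overlap the 4 wild-type arrays, open grey squares those that overlapped. The 3 probe sets of Slc25a4 read 0.86 or more and the 8 of Slc25a5 0.20 to 0.40.

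The other adenine nucleotide carriers showed no common direction. Of the 7 tested in this group, 3 lay above 0, and their median was -0.05. Slc25a23, Slc25a24 and Slc25a25 encode calcium-regulated carriers that exchange ATP-Mg for phosphate, and stood at 0.43 ± 0.27, -0.21 ± 0.18 and -0.29 ± 0.33. Slc25a42, a carrier of coenzyme A, read -0.15 and the peroxisomal Slc25a17 -0.05, with limma adjusted p of 0.497 to 0.938 for these 5. The testis form of the translocase, Slc25a31, stood between 19.0 and 39.1 on wild-type arrays and between 4.6 and 14.2 in the knockout, far under the signal minimum, and was not tested.

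The phosphate carrier gene Slc25a3 supplies the ATP synthase with the other substrate it needs. Its signals were 11440, 14362, 16931 and 19210 on wild-type arrays and 21538, 17905, 18955 and 17792 in the knockout. Wild type 4 lay among the knockout arrays, and the other wild-type arrays lay below them. The log2 fold change was 0.32 ± 0.15 (limma adjusted p = 0.364), with 0.61 within replicates 1 and 2 and 0.03 within replicates 3 and 4. Among genes of the ATP synthase, the outer membrane pores and other adenine nucleotide partners, 12 of 13 tested lay above 0, at a median of 0.23. None was called. Atp5c1 and Atp5o, both ATP synthase subunits, had the smallest p (0.52 ± 0.12 and 0.49 ± 0.13; limma adjusted p = 0.0917 and 0.119).

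**Figure D2:**
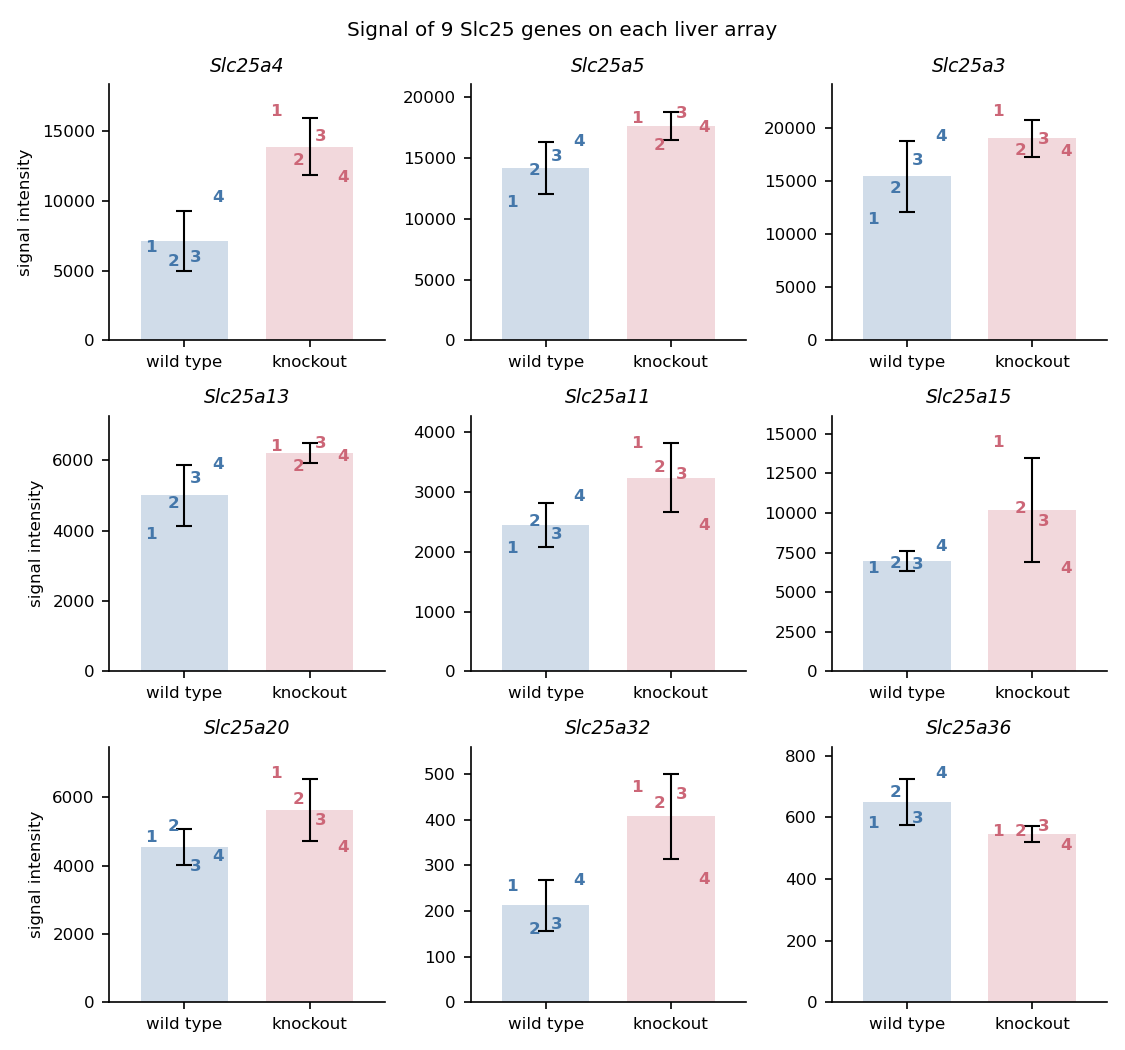
Signal intensity (linear, vertical axes from 0) of 9 Slc25 genes on the wild-type (blue) and knockout (red) arrays. Each digit is the replicate number of 1 array, bars are means and error bars are SD (n = 4 each). Slc25a4 and Slc25a32 have all 4 knockout arrays above the wild-type arrays and Slc25a36 has them all below, and the groups of the other 6 overlap.

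Of the 6 tested carriers of aspartate, glutamate, malate, citrate and related acids, 5 lay above 0, at a median of 0.28. Slc25a13 encodes citrin, the aspartate-glutamate carrier of liver, which serves the malate-aspartate shuttle and delivers aspartate to the urea cycle. It stood at 3901, 4779, 5470 and 5873 on wild-type arrays and at 6394, 5831, 6468 and 6112 in the knockout. The groups met at wild type 4 and knockout 2 only. The means were 5006 ± 864 and 6201 ± 291 (SD, n = 4 each; log2 fold change 0.32 ± 0.14 SE; limma adjusted p = 0.321). Its paralog Slc25a12 (aralar), better known from brain and muscle, read 0.24 ± 0.17 (adjusted p = 0.536).

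Slc25a11, the oxoglutarate carrier that completes the malate-aspartate shuttle, had signals of 2051, 2504, 2286 and 2923 on wild-type arrays and of 3812, 3411, 3287 and 2438 in the knockout. Knockout 4 lay within the wild-type range and the other 3 knockout arrays above it. Its log2 fold change was 0.40 ± 0.17 (limma adjusted p = 0.317), 0.67 in replicates 1 and 2 and 0.13 in replicates 3 and 4. All 4 shuttle enzymes lay above 0 as well, at a median of 0.41, with 0 called. Mdh1, the cytosolic malate dehydrogenase, read 0.45 ± 0.11 and Got1, the cytosolic aspartate aminotransferase, 1.07 ± 0.36 (limma adjusted p = 0.113 and 0.215). Got1 read 1.86 within replicates 1 and 2 and 0.28 within replicates 3 and 4, and Mdh1 read 0.34 and 0.55. For Got1 knockout 4 (6168) lay within the wild-type range (3861 to 10192). The median of the 4 enzymes was 0.48 within replicates 1 and 2 and 0.22 within replicates 3 and 4.

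The remaining 3 tested carriers of this group had no common direction. Slc25a1, which exports citrate for fatty acid synthesis, read 0.05 ± 0.13. The dicarboxylate carrier Slc25a10 read -0.24 ± 0.20 and its other probe set -0.63 ± 0.36 (-0.67 in replicates 1 and 2 and -0.58 in replicates 3 and 4), and the glutamate carrier Slc25a22 0.33 ± 0.33 (limma adjusted p of 0.463 to 0.906 for these 4 values). For Slc25a22 wild type 1 stood at 1462 and the other 7 arrays between 3082 and 4708. Slc25a18, the other glutamate carrier, was not tested (54.9 to 199). Of 5 genes of citrate export and use in the cytosol 0 were called. Malic enzyme 1, Me1, was at 0.62 ± 0.19 and the citrate lyase Acly at -0.21 ± 0.18 (adjusted p = 0.189 and 0.641).

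Slc25a15 encodes the ornithine carrier ORC1, which takes ornithine into the matrix and citrulline out for the urea cycle. Its signals were 6486, 6790, 6772 and 7906 on wild-type arrays and 14423, 10294, 9482 and 6512 in the knockout. Knockout 1 to 3 lay above every wild-type array, and knockout 4 sat at the bottom of the wild-type range. The mean was 1.46 times as high in the knockout (6989 ± 628 against 10178 ± 3264, SD, n = 4 each), with a log2 fold change of 0.49 ± 0.20 (SE; limma adjusted p = 0.310). Without knockout 4 it was 0.68, with an adjusted p of 0.0642. Its second probe set read 0.55 ± 0.20 (adjusted p = 0.258), and there the groups did not overlap. Within replicates 1 and 2 the brightest probe set read 0.88, and within replicates 3 and 4 it read 0.10. For the second probe set these values were 0.59 and 0.51.

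Slc25a29, which carries basic amino acids, read 0.12 ± 0.14 (limma adjusted p = 0.741). Slc25a2, a second ornithine carrier gene, stood between 59.2 and 144.5 and was not tested. Of 8 urea cycle and ornithine enzymes 6 lay above 0, at a median of 0.40, and 0 were called. The median of this list was 0.69 within replicates 1 and 2 and 0.18 within replicates 3 and 4. Ass1 was counted by a dim probe set (0.43 ± 0.44). It stood at 210 to 451 on wild-type arrays and at 184 to 944 in the knockout. Nags, whose product N-acetylglutamate activates the first urea cycle enzyme, read 0.75 ± 0.18, and Odc1, which turns ornithine into polyamines, -0.91 ± 0.26 (limma adjusted p = 0.103 and 0.152). Without knockout 4 both were called.

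Slc25a20 encodes the carnitine-acylcarnitine translocase, which brings long-chain fatty acids into the matrix for oxidation. It stood at 4831, 5147, 3969 and 4257 on wild-type arrays and at 6685, 5928, 5332 and 4546 in the knockout. Knockout 4 was the 1 knockout array inside the wild-type range. The log2 fold change was 0.30 ± 0.15 (limma adjusted p = 0.387), and its other probe set read 0.23 ± 0.12. Within replicates 1 and 2 and within replicates 3 and 4 the brightest probe set read 0.34 and 0.26, and the other 0.37 and 0.09. In the carnitine shuttle and long-chain oxidation list 9 of 10 tested lay above 0, with 0 called. The list's median was 0.14, with 0.38 within replicates 1 and 2 and 0.08 within replicates 3 and 4. The exception had the smallest p of the list. It was Crot, the peroxisomal carnitine octanoyltransferase, at -1.06 ± 0.23, and Acadl, a long-chain acyl-CoA dehydrogenase, read 0.39 ± 0.11 (limma adjusted p = 0.0853 and 0.148).

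The iron carriers did not differ beyond the spread. Slc25a37, mitoferrin 1, feeds heme synthesis in red cell precursors, which newborn liver still holds. It stood at 13257, 11869, 14260 and 12475 on wild-type arrays and at 11347, 9868, 13362 and 18207 in the knockout. The knockout arrays lay on both sides of the wild-type arrays, and the log2 fold change was -0.01 ± 0.17 (limma adjusted p = 0.986). Knockout 4 was the highest array. Mitoferrin 2, Slc25a28, the form of other tissues, had 400, 405, 446 and 586 on wild-type arrays and 570, 486, 420 and 450 in the knockout (0.07 ± 0.17; adjusted p = 0.881). Erythroid markers (6 of 10 on the array, 5 tested) had summed signals of 36373 to 43991 on wild-type arrays and 31292 to 46236 in the knockout, with 1 of 5 above 0. Their part in the values of Slc25a37 was not tested. Of 13 genes of heme, iron and iron-sulfur handling 4 lay above 0, at a median of -0.12, and 0 were called. Alad, an enzyme of heme synthesis, was at -0.86 ± 0.33 and the iron-sulfur scaffold Iscu at 0.48 ± 0.19 (adjusted p = 0.272 and 0.282).

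Among carriers of cofactors, other nucleotides and small amino acid derivatives, 6 of 8 tested lay above 0, at a median of 0.10. Slc25a32, on chromosome 15, carries folate or FAD into the matrix. Its signals were 253, 159, 171 and 267 on wild-type arrays and 469, 434, 456 and 270 in the knockout. All knockout arrays lay above the wild-type arrays, but knockout 4 (269.6) lay close to wild type 4 (267.3). The mean was 1.92 times as high (212 ± 55.4 against 407 ± 92.8, SD, n = 4 each). The log2 fold change was 0.89 ± 0.24 (SE; limma adjusted p = 0.131), and 0.77 to 1.07 with each array left out. It passed without knockout 4 (adjusted p = 0.0484), and the other 7 gave adjusted p of up to 0.326. The second probe set read 0.40 ± 0.18 (adjusted p = 0.330) with no overlap of the groups, and the remaining one was under the signal minimum. On wild-type arrays the second probe set had a higher mean than the first (255 against 212), and in the knockout a lower one (345 against 407).

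Slc25a36, a pyrimidine nucleotide carrier, was the 1 tested member with all knockout arrays below the wild-type arrays. It stood at 581, 680, 596 and 741 on wild-type arrays and at 554, 553, 572 and 510 in the knockout. The nearest arrays were wild type 1 and knockout 3, and the log2 fold change was -0.23 ± 0.13 (limma adjusted p = 0.452). Groups without overlap were thus found for 2 of 34 members upward (5.88%) and 1 downward (2.94%), against 4.91% and 5.41% of all genes tested. Its paralog Slc25a33 read 0.32 ± 0.23. The glycine carrier Slc25a38 and the glutathione carrier Slc25a39, both needed for heme synthesis or redox balance in the matrix, read -0.10 ± 0.17 and 0.11 ± 0.12. Slc25a16 (0.09), the NAD carrier Slc25a51 (0.06) and Slc25a44 (0.21), which carries branched-chain amino acids, were also near 0. Slc25a40, the relative of Slc25a39, lay between 195 and 269 on wild-type arrays and between 94.8 and 199 in the knockout, and was not tested.

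**Figure D3:**
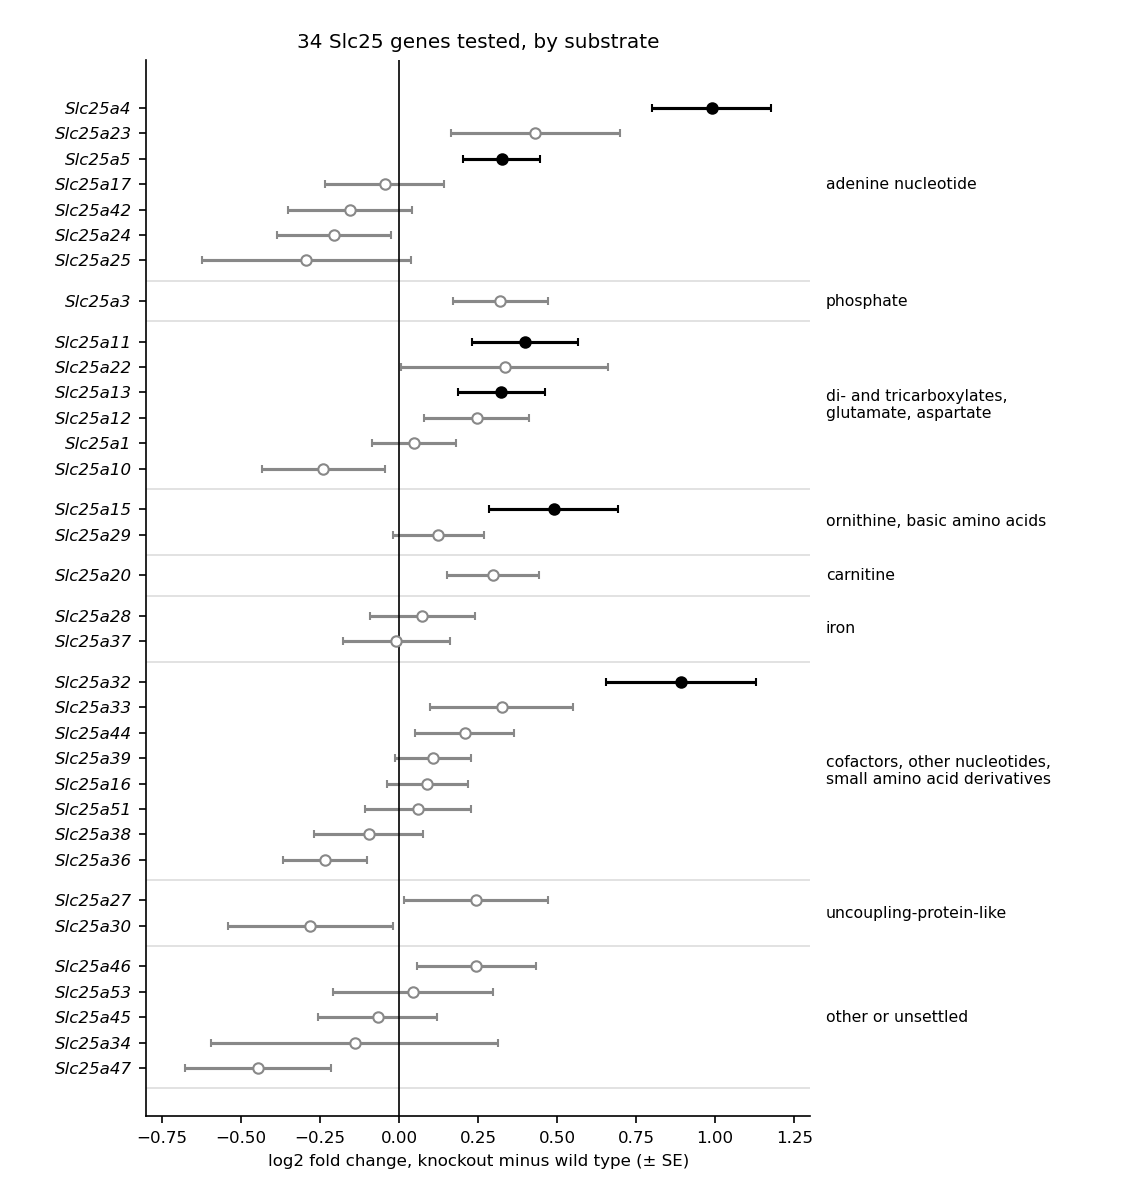
Log2 fold change, knockout minus wild type, with limma's standard error for the 34 tested Slc25 genes, grouped by substrate. Filled black points have an unadjusted p under 0.05 and open grey points do not, and 0 passed after adjustment over all probe sets. Values ran from -0.45 for Slc25a47 to 0.99 for Slc25a4.

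By their brightest probe sets, the carriers that resemble uncoupling proteins and those of unsettled substrate leaned neither way. Slc25a47, found almost only in liver, had signals of 13420, 12640, 10366 and 16558 on wild-type arrays and 15445, 8510, 9519 and 6757 in the knockout. Knockout 1 lay among the wild-type arrays and knockout 2 to 4 lay below them all. The log2 fold change of -0.45 ± 0.23 (limma adjusted p = 0.415) was the lowest of the 34. Slc25a30 stood at 850, 1450, 1287 and 1700 on wild-type arrays and at 1675, 1042, 854 and 822 in the knockout, with overlapping groups (-0.28 ± 0.26; adjusted p = 0.671). Its other 2 tested probe sets read -0.53 ± 0.19 and -0.36 ± 0.23 (limma adjusted p = 0.245 and 0.515). A dim, untested probe set of Slc25a30 stood at 125 to 285 on wild-type arrays and at 27.4 to 110 in the knockout, and another overlapped. With the next tested probe set taken where a gene had one, 6 members were higher and 1 lower at an unadjusted p under 0.05. Of all probe sets 14.4% had such a p. Slc25a27 was at 0.24, Slc25a46, which sits in the outer membrane and shapes mitochondria, at 0.24, and Slc25a53, Slc25a45 and Slc25a34 at 0.04, -0.07 and -0.14. Family members under other symbols included Mtch2, an outer membrane protein, at 0.68 ± 0.14 (adjusted p = 0.0712), which was called with the split as a block. Mtch1 read 0.17 ± 0.14.

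The 10 members not tested were Slc25a2, Slc25a14, Slc25a18, Slc25a26, Slc25a31, Slc25a35, Slc25a40, Slc25a41, Slc25a48 and Slc25a54, of which 7 lay under a signal of 200 on every array. Slc25a48 ran from 23.4 to 129 on wild-type arrays and from 67.6 to 295 in the knockout, and Slc25a26, the S-adenosylmethionine carrier, from 60.6 to 245 and from 186 to 220. Where 2 or more probe sets of a gene were tested (14 genes), 11 genes had 1 sign throughout. The exceptions were Slc25a24, Slc25a44 and Slc25a51, the last with 0.06, 0.06 and -0.45.

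Carrier precursors reach the inner membrane through TOM70, small TIM chaperones and the TIM22 complex. Of 13 import genes 9 lay above 0, at a median of 0.12, and 0 were called, with Timm9 at 0.42 ± 0.16 and Timm8a1 at 0.34 ± 0.16 (limma adjusted p = 0.269 and 0.384). The median of the import genes was 0.20 within replicates 1 and 2 and 0.06 within replicates 3 and 4. Of 9 other inner membrane transporters 4 lay above 0, at a median of -0.01, again with 0 called. Mpc1, a subunit of the pyruvate carrier, read -0.46 ± 0.10 and Sfxn2, a sideroflexin, 0.74 ± 0.19 (adjusted p = 0.0916 and 0.122). Without knockout 4, 6 of the 78 partner genes tested were called: Got1, Nags, Odc1, Crot, Sfxn2 and Mtch2. In that fit 1.64% of all probe sets were called, against 0.299% with all 8 arrays.

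The size of the difference varied between the pairs of replicates. The median of the 34 members was 0.23 within replicates 1 and 2, with 25 above 0, and 0.03 within replicates 3 and 4, with 19 above 0. For all genes tested the medians were -0.02 and -0.02. A total of 20 members had the same sign in both. A test of the difference between the pairs had an unadjusted p under 0.05 for 5 of 34 (14.7%), against 9.92% of all probe sets, and 0 members passed after adjustment (limma adjusted p of 0.490 for each of the 5). These were Slc25a3, Slc25a10, Slc25a15, Slc25a22 and Slc25a30, of which Slc25a10 and Slc25a22 were chosen after their values were seen. The second probe sets of Slc25a10 and Slc25a15 had an unadjusted limma p of 0.869 and 0.846 for this difference. The other tested probe sets of Slc25a30 had 0.120 and 0.0245. Slc25a22 read 1.01 in replicates 1 and 2 and -0.34 in replicates 3 and 4, and Slc25a30 0.25 and -0.81. By their brightest probe sets Slc25a4 (1.24 and 0.74) and Slc25a32 (1.11 and 0.67) stood above 0.5 in both. The other tested probe sets of Slc25a4 did so too (1.05 and 0.67, 1.24 and 0.76). The second of Slc25a32 did not, at 0.23 and 0.58.

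Single arrays lay at the ends of the range for many members. Wild type 1 was the lowest of the 8 arrays for 15 of the 34 and knockout 1 the highest for 14, while wild type 4 was the highest for 8. Relative to the wild-type mean, the median of the members was -0.16, -0.03, -0.04 and 0.19 on wild type 1 to 4 and 0.28, 0.07, 0.17 and -0.02 on knockout 1 to 4 on the log2 scale. Knockout 1 also had the highest pyruvate carboxylase 3'/5' ratio (7.03), and hepatocyte markers had medians of 0.37 within replicates 1 and 2 and -0.08 within replicates 3 and 4. The part of either in these values was not tested.

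**Figure D4:**
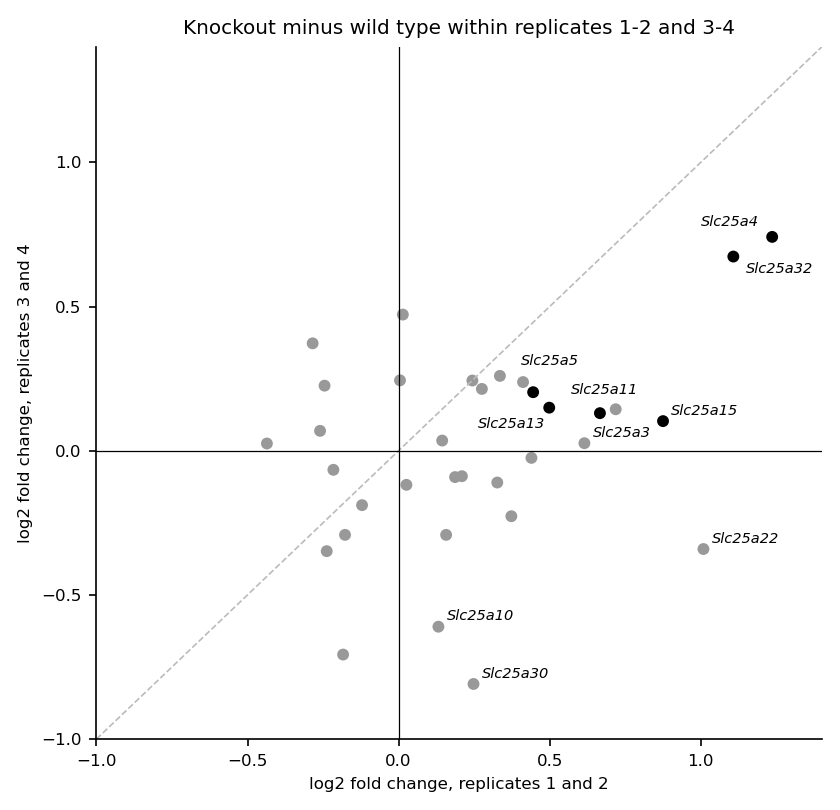
Log2 fold change, knockout minus wild type, within replicates 1 and 2 (horizontal axis) and within replicates 3 and 4 (vertical axis) for the 34 tested Slc25 genes, with the dashed line marking equal values. Black points have an unadjusted p under 0.05 over all 8 arrays, and named points have that or a p under 0.05 for the difference between the pairs. Slc25a4 and Slc25a32 lie apart at the upper right, at 1.24 and 0.74 and at 1.11 and 0.67.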

How the data were processed

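The deposited values are probe set signal intensities from GCOS 1.2 at default settings, scaled by the software to a target signal of 500, per the labels. A trimmed mean of 500.0 was found on each array, and nothing was rescaled. The table has 45101 probe sets and no detection calls. Groups and replicate numbers come from the sample titles. The labels tie no pup to a litter, so p-values measure only the spread between these samples.

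Probe sets were named from the platform annotation and matched by Entrez identifier to RefSeq, and 34945 have exactly 1 gene. The 64 control probe sets were left out of the fit. Log2(signal + 16) was compared with limma 3.58.1 in R 4.3.3 (lmFit, then eBayes with an intensity trend, two-sided) over 20395 probe sets (200 or more on 4 or more arrays), with Benjamini-Hochberg adjustment over all of them. Fold changes are on that log2 scale, which understates those of dim probe sets. Their median standard error over members was 0.18, and precision is limited by the small number of arrays. The procedure was tested on simulated data. Tables were made with pandas 2.3.3 under Python 3.11.15 and figures with matplotlib 3.10.9.

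The members and lists were chosen with earlier results of these data known. Values by array are given for members that are called, have an unadjusted p under 0.05, have groups without overlap, or have the smallest p of their substrate group, and elsewhere for context. In partner lists the 2 genes with the smallest p are named. Alternatives were other pseudocounts, signal minimums, scalings, limma settings and probe set choices, a replicate block, the split of the arrays, and each array left out.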

Additional observations from a re-analysis of the deposited data

Results flagged for a closer look

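Of the 68 groups of 4 arrays examined for the 34 tested members, 3 held an array far from the other 3, by Dixon's criterion at the 95% level on the log2 scale. Chance alone gives about 1 in 20. Slc25a23 stood at 1286 on wild type 1 and between 2909 and 3185 on wild type 2 to 4. Slc25a51 was 2574 on wild type 1 against 3129 to 3219 on the other wild-type arrays. Slc25a32 was 269.6 on knockout 4 against 434 to 469 on the other knockout arrays.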

How the results depend on the processing

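The count of 0 members called became 1 (Slc25a4) with a signal minimum of 400, with the split as a block, and with that block but no wild type 4. It became 2 (Slc25a4 and Slc25a32) with array weights, and ran from 0 to 2 with each array left out. Calls over all probe sets moved too, from 0.299% to 0.809% with the minimum of 400, 0.755% with the block but no wild type 4, 3.67% with array weights, and 0.00981% to 1.64% with an array left out. The 6 members at an unadjusted p under 0.05 became 3 without the intensity trend and 10 with array weights (7 higher and 3 lower), and 2 to 7 with an array left out. Over all probe sets the share at this p was 14.4% in the main fit, 13.9% without the trend and 20.1% with array weights. The members' median moved by less than 0.13 (SD of that median over knockout arrays) in all 25 settings. As this bound is larger than the median of 0.10 itself, it cannot show that the median is stable. Within replicates 1 and 2 the median was 0.23, and within replicates 3 and 4 it was 0.03. Slc25a4 was called in 6 of the 25 settings. Partner genes called went from 0 to 1 with the split as a block and to 0 to 6 with an array left out. Marker genes called went from 0 to 1 (Tat) with the split as a block and to 0 to 1 with an array left out. Slc25a28 turned to -0.060 with array weights and to -0.23 within replicates 3 and 4, and ran from -0.0090 to 0.19 with an array left out. Slc25a30 turned to 0.25 within replicates 1 and 2. The cause was not tested. With the replicate block 0 of 34 members were called and 5 had an unadjusted p under 0.05. Of all probe sets 0.275% were called in that fit, and 17.4% had such a p. Slc25a4 stood at 0.99 there (limma adjusted p = 0.0958). Same-numbered arrays deviated together with correlations of 0.22, 0.40, 0.34 and 0.05, beside -0.34 to 0.37 for arrays of different numbers. For knockout 1, 2 and 3 the same-numbered wild-type array gave the highest correlation, and for knockout 4 wild type 3 did (0.37). These values do not settle whether the arrays were paired. The labels tie no pup to a litter, so the main fit did not take the numbers as pairs. Signals under 200 limit what can be said of the 10 members not tested.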
